A study of Mus musculus with 8 samples.

Results

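The β-adrenergic and cAMP signalling genes described here are 9 of the 31053 genes counted in bulk RNA-seq libraries of mouse brown adipose tissue (BAT). They are the receptors Adrb1, Adrb3 and Adora2a, the G protein gene Gnas, the adenylyl cyclase Adcy3, the protein kinase A (PKA) subunits Prkaca and Prkar2b, the phosphodiesterase Pde3b and the transcription factor Creb1. They were chosen by name for their place in the pathway, and all 9 were found in the table. The study asked how BAT changes when macrophages lack CD36, a fatty acid transporter and scavenger receptor. The 8 libraries came from C57BL6/J mice labelled 8 weeks old, 4 labelled WT and 4 labelled Cd36KO. Per the study's methods, the mice lacking CD36 carried Cd36 flox/flox alleles with Csf1r-Cre, which acts in myeloid cells, so that other cells keep Cd36. The study describes BAT profiling in this line. It also made a germline knockout, and the labels themselves give only Cd36KO. The methods give a later age than the labels.

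In brown adipocytes, noradrenaline from sympathetic nerves binds β-adrenergic receptors, of which the β3 receptor is the form typical of rodent fat cells. The receptors act through the stimulatory G protein on adenylyl cyclase, which makes cAMP. cAMP releases the catalytic subunits of PKA from their regulatory subunits, and PKA drives lipolysis, thermogenesis and, through CREB, transcription. Phosphodiesterases break cAMP down, and PDE3B is the form through which insulin limits lipolysis.

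CREB binds the cAMP response element TGACGTCA or its shorter core TGACG. Because this element is where the pathway meets the DNA, both were searched on either strand in RefSeq promoters (GRCm38.p6, 250 bases before to 50 after each start), the full element counting as a core match too. Promoters were found for 6 of the 9 genes. Those of Adrb3, Adora2a and Pde3b were not analysed here. None of the 12 promoters of these 6 genes held the full element, against 1.79% of 32851 promoters, and 5 of them held the core, against 20.8%. The core stood in promoters of Adrb1, Gnas and Prkaca. A pair of the 4 Gnas promoters overlap and share the same core site, so that it is counted in both. Of the 176 promoters of 114 genes of a wider pathway list, 5 (2.84%) held the full element, in Dusp1, Dio2, Prkar1a and Rap1b, where a pair of overlapping Prkar1a promoters share the same site, and 30.7% held the core or the full element. The 150 bases before the start are shown for the 3 members with a core, and for Dusp1, Dio2 and Pck1, outputs of the pathway whose values follow. Capitals mark the match (CGTCA is the core on the other strand), and a match is a description of the letters, since binding was not measured.
Adrb1, chr19:56721967-56722116, plus strand: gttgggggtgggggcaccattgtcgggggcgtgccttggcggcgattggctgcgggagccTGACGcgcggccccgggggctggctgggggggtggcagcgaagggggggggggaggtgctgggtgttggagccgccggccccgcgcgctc
Gnas, chr2:174327599-174327748, plus strand: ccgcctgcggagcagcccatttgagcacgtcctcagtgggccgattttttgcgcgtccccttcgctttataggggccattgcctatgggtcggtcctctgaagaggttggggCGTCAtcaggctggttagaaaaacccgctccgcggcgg
Prkaca, chr8:83972828-83972977, plus strand: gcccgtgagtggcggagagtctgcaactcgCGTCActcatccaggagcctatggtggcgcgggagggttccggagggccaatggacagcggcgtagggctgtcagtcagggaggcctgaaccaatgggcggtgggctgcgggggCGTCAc
Dusp1, chr17:26508473-26508622, minus strand: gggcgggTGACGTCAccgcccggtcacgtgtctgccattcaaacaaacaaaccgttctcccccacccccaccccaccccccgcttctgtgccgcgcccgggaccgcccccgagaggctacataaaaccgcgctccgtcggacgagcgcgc
Dio2, chr12:90739039-90739188, minus strand: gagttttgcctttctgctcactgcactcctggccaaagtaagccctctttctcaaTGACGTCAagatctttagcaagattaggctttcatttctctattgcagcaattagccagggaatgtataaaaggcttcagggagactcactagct
Pck1, chr2:173152923-173153072, plus strand: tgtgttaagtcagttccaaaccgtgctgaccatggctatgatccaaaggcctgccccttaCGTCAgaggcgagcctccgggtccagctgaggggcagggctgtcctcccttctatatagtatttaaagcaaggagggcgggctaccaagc

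Several facts of the libraries bear on what follows. Total counts ran from 2679785 to 4097953 per library. Cd36 itself stood at 2796, 2958, 3505 and 2412 normalized counts in WT and at 1926, 2109, 2384 and 1930 in Cd36KO, with a log2 fold change of -0.48 (SE 0.16, DESeq2 adjusted p = 0.0602). The groups did not overlap (exact two-sided permutation p = 0.0286, the smallest that 4 against 4 libraries allow), and Cd36 remained abundant in the libraries labelled Cd36KO. Although the labels give the stromal vascular fraction as cell type, the summed level of 6 adipocyte markers was 35982 to 76586 normalized counts. The methods describe male mice, yet Xist had 772 to 1588 counts in every library, Uty, Kdm5d and Eif2s3y had 0, and Ddx3y had 0 to 3. Markers of white fat depots and of skeletal muscle set some libraries apart. The sum of 8 white depot markers was 600 in WT replicate 1 and 3967, 4952 and 4510 in the other WT libraries, against 536 to 977 in Cd36KO, with 4 of the 8 called and Hoxc10 at 0. The sum of 10 muscle markers was 43660, 8558, 492 and 9110 in WT and 34.8 to 5692 in Cd36KO, with 0 of 10 called.

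Values below are normalized counts, that is counts divided by the DESeq2 size factor of the library, in the order WT replicates 1 to 4, then the unnumbered Cd36KO library and Cd36KO replicates 2 to 4. Fold changes compare Cd36KO with WT, and a gene was called when its DESeq2 adjusted p over all genes was under 0.05. None of the 9 genes was called, where 2.95% of 9619 genes tested were. Adrb3, Pde3b and Adora2a had an unadjusted p under 0.05, where 15.6% of all tested genes did. edgeR and limma called 0 of the 9 as well, each with the same 3 genes at an unadjusted p under 0.05 (16.1% and 14.8% of all genes). For no member did the 4 Cd36KO values all lie on the same side of the 4 WT values, as they did for 10.9% of the 5528 genes with a mean of at least 50 normalized counts.

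**Figure D1:**
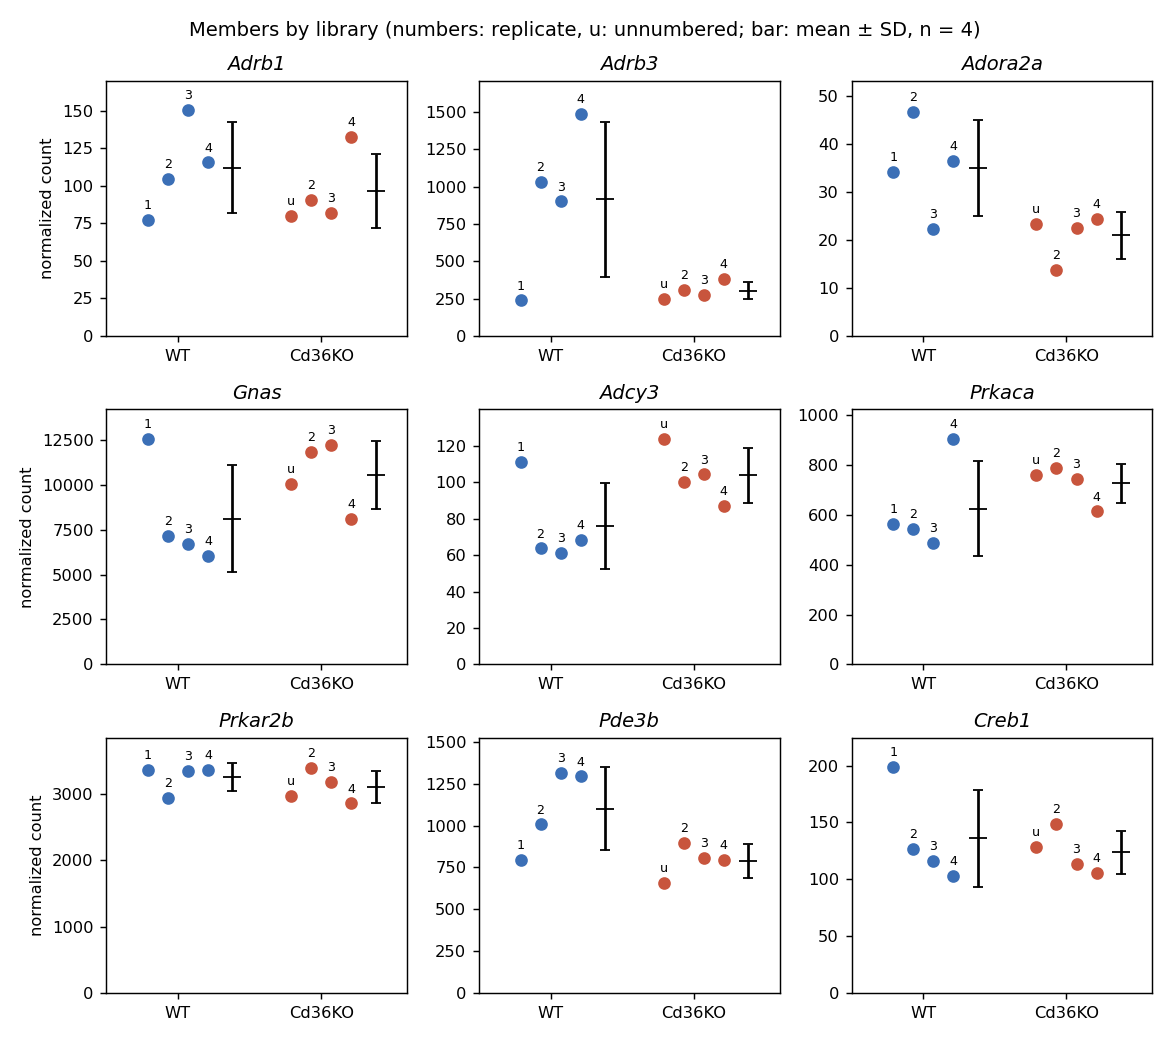
Normalized counts of the 9 genes in each of the 4 WT (blue) and 4 Cd36KO (red) libraries, with the replicate number above each point (u, the unnumbered library) and the mean ± SD as black bars. Adrb3 lay between 901 and 1489.7 in 3 WT libraries and at 238 in WT replicate 1, below the lowest Cd36KO library (247).

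Compared per length, the 9 genes spanned a wide range of levels. On the scale of CPM per kilobase of exon (counts scaled to the library total and to exon length), Prkar2b (293 ± 30.5, SD, n = 4) and Gnas (244 ± 113) were the most abundant in WT. On this scale they did not differ beyond their spread. Adrb3 (85.8 ± 44.1) and Prkaca (81.5 ± 19.03) came next and overlapped as well, followed by Pde3b (39.1 ± 5.66) and Adrb1 (10.7 ± 2.33). Adcy3 (4.07 ± 1.64), Adora2a (3.78 ± 1.22) and Creb1 (3.32 ± 1.37) were lowest and lay within each other's spread. In Cd36KO, the level of Adrb3 (28.4 ± 6.22) was next to that of Pde3b (27.3 ± 4.42), and below Prkaca (91.7 ± 9.92). Gnas (296 ± 57.0) and Prkar2b (267 ± 27.7) again stood highest, and Adora2a (2.15 ± 0.474) and Creb1 (2.83 ± 0.466), whose mean ± SD ranges overlapped, lowest. The libraries were made by a commercial Digital mRNA-seq service (NEGEDIA). Whether they read whole transcripts or their 3′ ends is not stated, and in the latter case the levels of long genes such as Creb1 (13742 exonic bases) and Gnas (11186) would be understated. The exon length of Gnas also pools the exons of all its annotated transcripts. Without division by length, Gnas stood above Prkar2b in every library (6017 to 12517 against 2859 to 3397 normalized counts).

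Among the receptors, Adrb3 had the largest difference of the 9 genes and also the widest spread in WT. Adrb3 (ENSMUSG00000031489, GRCm38 chromosome 8, 27225776 to 27250616, minus strand) stood at 238, 1031, 901 and 1489.7 normalized counts in WT and at 247, 311, 275 and 382 in Cd36KO. WT replicate 1 lay below all 4 Cd36KO libraries, whereas the other 3 WT libraries lay above them. The log2 fold change was -1.59 (SE 0.52, 95% interval -2.60 to -0.58, adjusted p = 0.0614), and the exact permutation p was 0.143. The coefficient of variation was 56.5% in WT and 19.2% in Cd36KO, against medians of 20.6% and 16.9% over genes with a mean of at least 50. In bulk tissue, fewer cells of a type and less RNA per cell cannot be told apart.

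The call of Adrb3 depended on WT replicate 1, and its value moved with the white depot markers. Without WT replicate 1, the lowest WT library, the log2 fold change was -1.91 (SE 0.21, adjusted p = 3.97e-16). Without WT replicate 4, the highest, it was -1.25 (SE 0.53, adjusted p = 0.112), and Adrb3 was not called without any of the other 6 libraries either (-1.72 to -1.50). With the white depot score as a covariate, it was 0.20 (SE 0.32, adjusted p = 0.759), so that the direction turned. On its log2 scale, this score was 3.86 in WT replicate 1, 6.11 to 6.66 in the other WT libraries and 3.38 to 4.34 in Cd36KO. It nearly follows genotype, so fits with it, here and below, separate score from genotype mainly through WT replicate 1. Such fits cannot tell genotype and depot markers well apart. The 3 WT libraries high in Adrb3 were those with a white depot sum of 3967 or more, and the 5 libraries at 382 or lower in Adrb3 had sums of 977 or lower. The part of the white depot markers in the Adrb3 difference was not tested beyond this covariate. The sum of 8 brown adipocyte markers, which includes Adrb3 and is mostly Ucp1 and Cidea, was 15317 to 20927 in WT and 26878 to 35370 in Cd36KO. In Dio2 and Ppargc1a, which belong to that list, WT replicate 1 lay within the Cd36KO range (581 and 449 normalized counts) and the other WT libraries below it.

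The groups overlapped for Adrb1, the β1 receptor. It stood at 77.6, 104, 151 and 116 normalized counts in WT and at 80.2, 90.9, 81.8 and 133 in Cd36KO, with the groups interleaved (log2 fold change -0.21, 95% interval -0.73 to 0.31, adjusted p = 0.784). It was -0.03 without WT replicate 3 and -0.41 without Cd36KO replicate 4, and with the white depot covariate its direction turned, to 0.29 (adjusted p = 0.696). Within each library, the ratio of Adrb3 to Adrb1 counts was 3.07, 9.87, 5.98 and 12.9 in WT and 3.08, 3.42, 3.36 and 2.88 in Cd36KO. WT replicate 1 thus had a ratio within the Cd36KO range (exact permutation p = 0.114). This ratio was chosen after the values were seen.

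Adora2a, the adenosine receptor coupled to the stimulatory G protein, was the least counted member, with 12 to 55 raw counts per library. It stood at 34.3, 46.7, 22.3 and 36.6 normalized counts in WT and at 23.4, 13.8, 22.5 and 24.4 in Cd36KO. WT replicate 3 lay within the Cd36KO range and the other WT libraries above it (log2 fold change -0.73, 95% interval -1.45 to -0.02, adjusted p = 0.299).

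Gnas, which encodes the stimulatory G protein α subunit, showed the opposite arrangement to Adrb3 in WT replicate 1. It stood at 12517, 7169, 6716 and 6017 normalized counts in WT and at 10018.5, 11824, 12215 and 8099 in Cd36KO. WT replicate 1 was the highest of all 8 libraries, and the other 3 WT libraries were below all Cd36KO libraries (log2 fold change 0.38, SE 0.24, adjusted p = 0.457). Without WT replicate 1 it was 0.67 (SE 0.17, adjusted p = 0.00595), and with the white depot covariate -0.24 (adjusted p = 0.559). Gnas is an imprinted locus with several promoters, and counts per gene do not separate its transcripts.

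Adcy3, an adenylyl cyclase, also had WT replicate 1 apart from its group. Its normalized counts were 111, 63.7, 61.2 and 68.3 in WT and 124, 100.1, 104 and 86.9 in Cd36KO, with WT replicate 1 inside the Cd36KO range and the other WT libraries below it (log2 fold change 0.44, 95% interval -0.06 to 0.94, adjusted p = 0.411). Without WT replicate 1 the log2 fold change was 0.68 (adjusted p = 0.121), and with the white depot covariate 0.02 (SE 0.35, adjusted p = 0.982).

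Neither of the PKA subunits was called, and their groups overlapped. Prkaca, the catalytic subunit α, stood at 564, 544, 488 and 907 normalized counts in WT and at 761, 789, 744 and 615 in Cd36KO. Here WT replicate 4 was the highest library and the other 3 WT libraries lay below all Cd36KO libraries (log2 fold change 0.22, 95% interval -0.19 to 0.62, adjusted p = 0.687). Without WT replicate 4 it was 0.45 (adjusted p = 0.0482), and without WT replicate 3 it was 0.12. Prkar2b, the regulatory subunit IIβ that is abundant in fat, had the narrowest spread of the 9 genes, 6.40% in WT and 7.70% in Cd36KO. Its normalized counts were 3365, 2946, 3353 and 3369 in WT and 2967, 3397, 3187 and 2859 in Cd36KO, with overlapping groups. The log2 fold change was -0.07 with a 95% interval of -0.31 to 0.17 (adjusted p = 0.846).

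Pde3b stood at 794, 1007, 1314 and 1295 normalized counts in WT and at 657, 898, 806 and 795 in Cd36KO. WT replicate 1 lay within the Cd36KO range and the other 3 WT libraries above it. The log2 fold change was -0.48 (SE 0.19, 95% interval -0.86 to -0.11, adjusted p = 0.159), without WT replicate 1 it was -0.61 (adjusted p = 0.0167), and with the white depot covariate -0.06 (adjusted p = 0.906). With the muscle score as covariate it was -0.74 (adjusted p = 0.0465).

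Creb1, which encodes the transcription factor that PKA phosphorylates, stood at 199, 127, 116 and 103 normalized counts in WT and at 128, 148, 114 and 105 in Cd36KO. The groups overlapped throughout, with WT replicate 1 the highest library (log2 fold change -0.14, 95% interval -0.63 to 0.34, adjusted p = 0.846). Its sign changed in 4 of the 17 alternative fits, and with the white depot covariate its log2 fold change was -0.61 (adjusted p = 0.224).

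**Figure D2:**
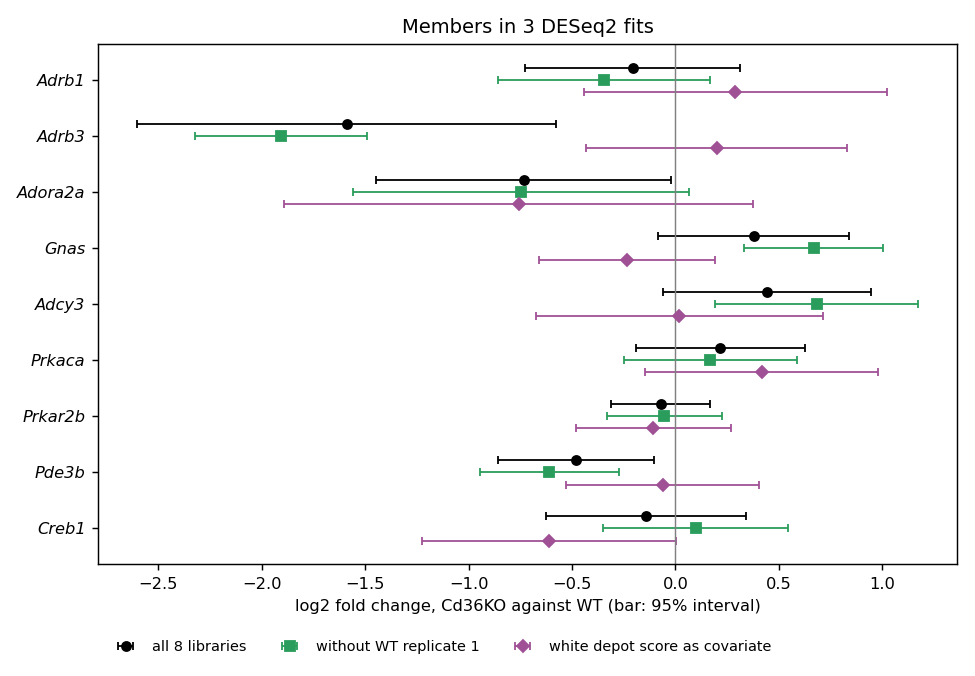
Log2 fold change of Cd36KO against WT for the 9 genes (points, with 95% intervals as bars) in the DESeq2 fits of all 8 libraries (circles), without WT replicate 1 (squares) and with the white depot score as a covariate (diamonds). The Adrb3 estimate ran from -1.91 without WT replicate 1 to 0.20 with the covariate, and that of Prkar2b stayed near 0 in all 3 fits.

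WT replicate 1 therefore recurred as the lowest or highest WT library, in Adrb1, Adrb3, Gnas, Adcy3, Pde3b and Creb1. It also had the highest muscle sum (43660) of the 8 libraries and the only WT white depot sum in the Cd36KO range. Leaving it out gave 3 called members, Adrb3 and Pde3b lower and Gnas higher in Cd36KO, where 3.35% of 10284 genes were called in that fit. Leaving out WT replicate 4 gave 1, Prkaca (8.16% of all genes tested were called), and leaving out any other library gave 0. With the muscle score as covariate, Pde3b was the member called (1.93% of all genes tested were called), and with the white depot score no member was (8.88%, with 0 members at an unadjusted p under 0.05).

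The genes whose pattern over the 8 libraries was most like that of Adrb3, by Pearson's r of log2(normalized count + 1), were S100a11 (0.974), Cavin3 (0.972), Amy1 (0.971), Bche (0.968) and Gnai1 (0.967). All of these correlations rest on the 3 WT libraries high in Adrb3 and are given as descriptions. Cavin3, a caveolar coat protein gene, stood at 54.2, 132, 149 and 277 in WT and at 50.1 to 59.8 in Cd36KO.

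**Figure D3:**
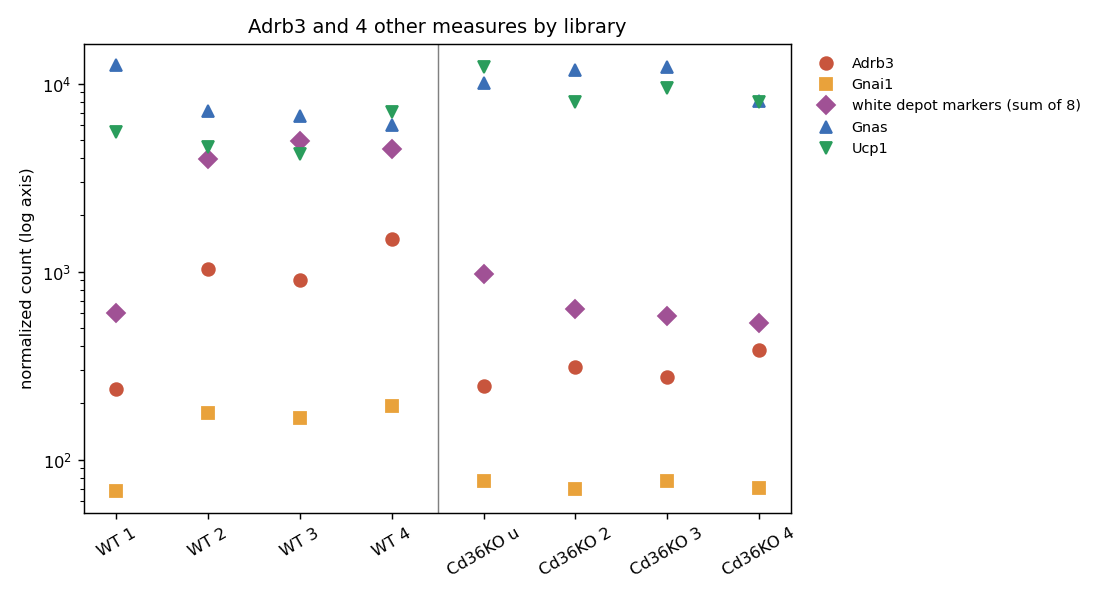
Normalized counts (log axis) of Adrb3, Gnai1, Gnas and Ucp1 and the summed normalized counts of 8 white depot markers, 1 point per library (4 WT to the left of the line, 4 Cd36KO to the right; u, unnumbered). Adrb3, Gnai1 and the white depot sum were low in WT replicate 1 and all Cd36KO libraries, while Ucp1 was at 7938 or more in every Cd36KO library.

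In the wider pathway list of 147 genes, which was fixed with earlier results of these data known, 142 had counts and 100 received an adjusted p. DESeq2 called 7 of these 100, with Ucp1, Cidea and Pde4a higher (1.42% of all genes tested were called higher) and Gnai1, Adcy5, Pck1 and Dusp1 lower (1.53%). The median log2 fold change of the 100 was -0.03, with 47 positive and 53 negative, against -0.01 over all genes. At an unadjusted p under 0.05 there were 25 of the 100, where 15.6% of all tested genes were. Of the 68 genes of the list with a mean of at least 50 normalized counts, 6 had all Cd36KO libraries above all WT libraries (6.91% of all such genes did) and 3 had them below (3.96%). edgeR called 0 of 102 genes of the list, with 25 at an unadjusted p under 0.05 (16.1% of all genes), and limma 0 of 113, also with 25 (14.8%). Over all genes edgeR called 14 (0.143%) and limma 5 (0.0445%). Leaving out a WT library gave 15 calls of 105 tested without replicate 1 (3.35% of all genes tested were called in that fit), 1 of 105 without replicate 2 (0.678%), 4 of 115 without replicate 3 (1.19%) and 6 of 73 without replicate 4 (8.16%). Leaving out a Cd36KO library gave 2 of 109 without the unnumbered library (1.07%), 4 of 76 without replicate 2 (4.39%), 3 of 77 without replicate 3 (1.92%) and 3 of 100 without replicate 4 (1.29%). Cidea was the gene called in every one of these fits. With the white depot covariate 7 pathway genes were called as well (8.88% of all genes), namely Ucp1, Cidea, Pnpla2, Adcy6, Grk5, Pkia and Prkar2a, of which Ucp1 and Cidea were also called without it.

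**Figure D4:**
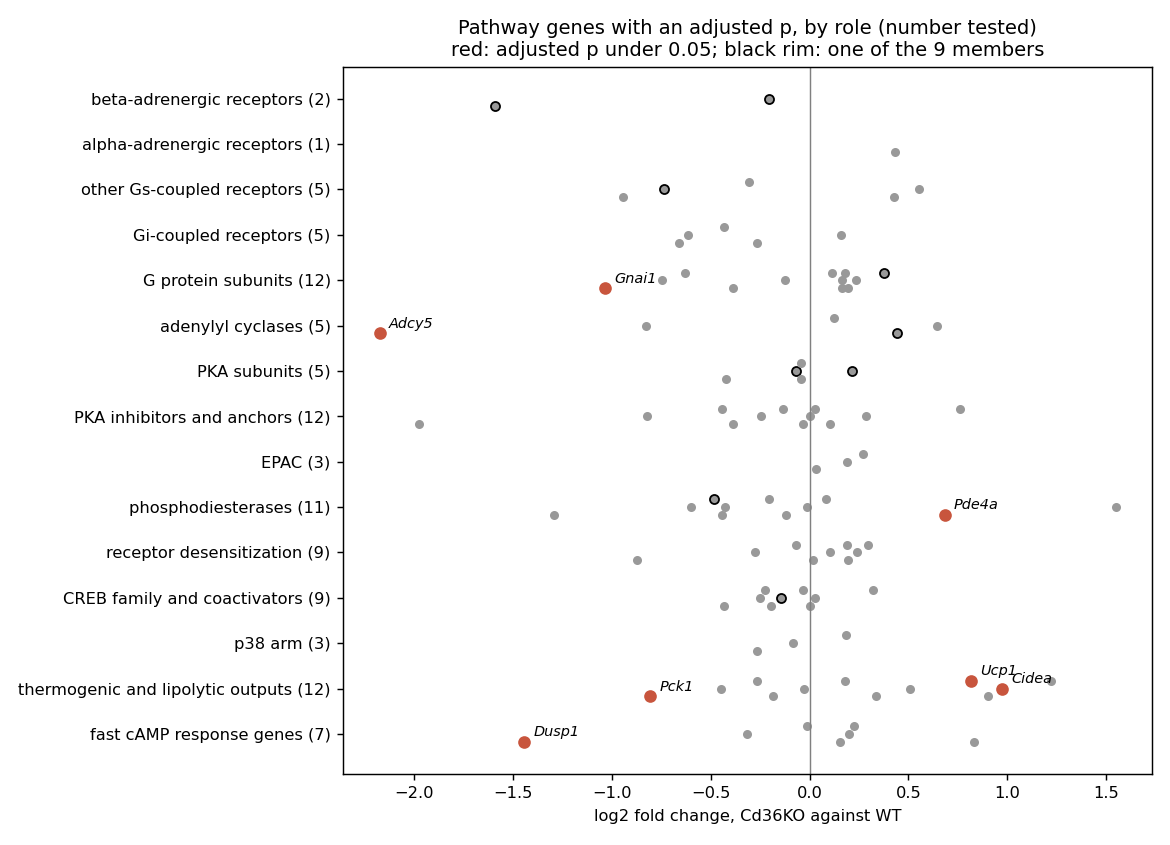
Log2 fold change of Cd36KO against WT for the 100 pathway genes with an adjusted p, 1 point per gene, in rows by role. Red points with names are the 7 genes with an adjusted p under 0.05, and black rims mark the 9 members, none of which is red.

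The outputs of the pathway in brown fat held the called genes with the highest levels. Ucp1, the uncoupling protein of thermogenesis, stood at 5527, 4598, 4235 and 7028 normalized counts in WT and at 12312.5, 8015, 9449 and 7938 in Cd36KO, with every Cd36KO library above every WT library. It rose by a log2 fold change of 0.82 (SE 0.20, adjusted p = 0.00843). Cidea, a lipid droplet protein gene abundant in brown fat, stood at 7024, 10154, 7556 and 9072 in WT and at 17895.5, 14588, 15194.5 and 18750.4 in Cd36KO. Its groups were likewise separate (log2 fold change 0.97, SE 0.16, adjusted p = 5.92e-06). Pck1, the gluconeogenic and glyceroneogenic enzyme gene, fell, from 1797, 2648, 2209 and 2876 in WT to 833, 1652, 1502 and 1462 in Cd36KO (log2 fold change -0.81, adjusted p = 0.0231). With the white depot covariate Ucp1 and Cidea were still called, and Pck1 was not (-0.55, adjusted p = 0.263). Ucp1 was not called with edgeR (adjusted p = 0.126) or limma (0.150), and neither was Cidea (0.0749 and 0.118). Nor was Ucp1 called without WT replicate 2 (adjusted p = 0.0854), WT replicate 3 (0.0582) or the unnumbered library (0.0627). Dio2, which makes active thyroid hormone, stood at 581, 176, 251 and 194.9 in WT and at 792, 522, 645 and 294 in Cd36KO (log2 fold change 0.91, adjusted p = 0.163). Without WT replicate 1 its log2 fold change was 1.44 (adjusted p = 1.69e-05), and with the white depot covariate 0.19 (adjusted p = 0.823). The lipase gene Pnpla2 had 7366 ± 1703 and 9304 ± 1740 (adjusted p = 0.421). Of the 12 tested outputs, 2 were called higher and 1 lower (1.42% and 1.53% of all genes), and 5 had an unadjusted p under 0.05 (15.6% of all genes). Unlike Adrb3, Ucp1 in WT replicate 1 lay inside the range of the other WT libraries. The ratio of Ucp1 to Adrb3 counts, also chosen after the values were seen, was 23.2, 4.46, 4.70 and 4.72 in WT and 49.8, 25.8, 34.3 and 20.8 in Cd36KO (exact permutation p = 0.0571).

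Among genes that act at or just after the receptors, Gnai1 and Adcy5 were called, both lower in Cd36KO. Gnai1, an inhibitory G protein α subunit, stood at 67.7, 177, 167 and 193 normalized counts in WT and at 76.9, 70.2, 76.7 and 70.9 in Cd36KO. It fell in the main fit (log2 fold change -1.04, adjusted p = 0.0289), although WT replicate 1 lay below all Cd36KO libraries. Gnai1 was not called with edgeR (adjusted p = 0.119) or limma (0.181). Nor was it called without any library other than WT replicate 1 (0.0530 to 0.181). With the white depot covariate its log2 fold change was -0.0047 (SE 0.34, adjusted p = 0.995). Gnai2 had 590 ± 92.2 and 638 ± 58.3 (adjusted p = 0.804), and Gnai1 was the only call among 12 tested G protein subunits (2.95% of all genes tested were called). Adcy5, another adenylyl cyclase, fell as well, from 7.22, 41.6, 28.2 and 33.6 in WT to 6.68, 11.5, 3.07 and 3.81 in Cd36KO (log2 fold change -2.17, adjusted p = 0.0218), with WT replicate 1 again in the Cd36KO range. It rested on 3 to 49 raw counts per library, and its log2 fold change was -0.41 (SE 0.85) with the white depot covariate. Adcy6 had 86.9 ± 22.0 and 48.8 ± 14.2 with separate groups (adjusted p = 0.106), and Adcy9 126 ± 25.0 and 137 ± 33.5. Among receptors outside the β family, no gene was called in the 11 tested (2.95% of all genes tested were). The α1A-adrenergic receptor gene Adra1a had 230 ± 35.2 in WT and 312 ± 13.4 in Cd36KO with separate groups (adjusted p = 0.137). The Gi-coupled adenosine receptor gene Adora1 had 555 ± 192 and 461 ± 17.8, and the lactate receptor gene Hcar1 143 ± 43.4 and 92.6 ± 32.7 (adjusted p = 0.289). For the prostaglandin receptor gene Ptger3, the values were 84.98 ± 54.0 and 53.9 ± 28.5. The Gs-coupled receptor genes Adcyap1r1 and Sctr had 36.6 ± 15.7 and 34.6 ± 18.1 in WT. In Cd36KO they had 48.6 ± 11.3 and 27.9 ± 9.16 (adjusted p = 0.601 and 0.803). Adra2a, an α2-adrenergic receptor gene, had 0 to 3 raw counts per library.

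Pde4a was the phosphodiesterase that was called. It stood at 215, 132, 139.96 and 189.9 normalized counts in WT and at 292, 272, 279 and 246 in Cd36KO, with every Cd36KO library above every WT library (log2 fold change 0.68, SE 0.20, adjusted p = 0.0313). With the white depot covariate its log2 fold change was 0.44 (adjusted p = 0.365). Pde4a was not called with edgeR (adjusted p = 0.126) or limma (0.144). Of the fits that leave out a library, only those without WT replicate 1 or WT replicate 4 called it. Its direction was opposite to that of Pde3b, and 1 of 11 tested phosphodiesterases was called (2.95% of all genes tested were).

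Among PKA subunits, inhibitors and anchors, 0 of 17 tested genes were called, where 2.95% of all genes were. At an unadjusted p under 0.05 there were 3, against 15.6% of all genes. The inhibitor gene Pkia had 234, 51.0, 27.1 and 57.4 in WT and 47.9, 12.7, 14.3 and 19.1 in Cd36KO (log2 fold change -1.98, adjusted p = 0.162), with the highest value in the library with the highest muscle sum. The regulatory subunit gene Prkar2a had 228 ± 78.2 and 170 ± 22.8, the anchor gene Akap9 497 ± 50.9 and 420 ± 78.5, and Akap13 455 ± 130 and 414 ± 51.0. The cAMP-binding exchange factor gene Rapgef3 and its target Rap1b had log2 fold changes of 0.19 and 0.27 (adjusted p = 0.819 and 0.465). Among 9 genes of receptor desensitization no gene was called (2.95% of all genes were), and 1 had an unadjusted p under 0.05 (15.6% of all genes). Rgs2 had 1730 ± 182 and 2045 ± 767, Grk3 161 ± 35.7 and 184 ± 19.1, and Arrb1 91.8 ± 11.5 and 112 ± 34.2.

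In the nucleus, 0 of 9 CREB family genes and coactivators were called (2.95% of all genes tested were), and none had an unadjusted p under 0.05 (15.6% of all genes). The coactivators Crebbp (489 ± 122 in WT, 428 ± 54.1 in Cd36KO) and Ep300 (192 ± 56.9 and 142 ± 32.0) and the kinase gene Sik2 (416 ± 113 and 349 ± 38.7) overlapped between groups. Map2k3, an upstream kinase of p38 (141 ± 39.0 and 118 ± 36.3), and the p38 kinase gene Mapk14 (80.6 ± 17.2 and 92.1 ± 15.8) did likewise. Mapk13, another p38 kinase gene, named after its values were seen, had 0 raw counts in every WT library and 8, 5, 7 and 4 in Cd36KO. It received no adjusted p, and was called with independent filtering off and without WT replicate 3. Of 7 tested genes that respond fast to cAMP, Dusp1, a phosphatase of MAP kinases, was called (2.95% of all genes tested were). It fell from 66.8, 56.1, 25.9 and 76.2 normalized counts in WT to 21.2, 24.2, 12.3 and 25.2 in Cd36KO (log2 fold change -1.44, adjusted p = 0.0157), with the lowest WT library just above the highest Cd36KO library. With the muscle score as covariate its log2 fold change was -0.86 (adjusted p = 0.407). Nr4a3, an orphan nuclear receptor, had 46.6 ± 15.7 in WT and 82.5 ± 3.88 in Cd36KO with separate groups (adjusted p = 0.0701). Nr4a2 had 67.5 ± 28.7 and 76.9 ± 30.7, and Pde4d 76.5 ± 20.3 and 75.8 ± 17.4.

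Some counts could be shared with a neighbouring gene, since the strand setting of the counting is not stated. The annotation places the antisense gene Gm45470 over 839 exonic bases of Adrb3. Gm45470 had 29, 27, 24 and 48 raw counts in WT and 15, 45, 34 and 27 in Cd36KO, at most 48 where Adrb3 had 222 to 1506. Adcy3 shares 1380 exonic bases with Cenpo on the opposite strand (2 to 18 raw counts). Gnas shares 988 with Nespas and 1469 with Gm20721, which had 0 to 2 and 0 raw counts. Lists of markers of other cell types gave the following summed normalized counts, whose part in the differences above was not tested. The nerve and Schwann list had Th and Dbh at 0 and sums of 459 to 839.5 in WT and 695 to 1271 in Cd36KO, with 0 of 8 called. The macrophage sums were 442 to 827 and 519 to 739 (1 of 10 called), and the endothelial sums 878 to 1276 and 987 to 1457 (0 of 6). The stromal progenitor sums did not overlap, at 1376 to 1627 in WT and 1094 to 1194 in Cd36KO (1 of 6 called).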

How the data were processed

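Brown adipose tissue RNA was sequenced in 4 WT and 4 Cd36KO libraries (single-end), grouped by the genotype label. For 1 Cd36KO library the table gives no replicate number, and it is called the unnumbered library. The authors deposited whole-number counts per gene, not normalized. Their methods name bbduk, STAR, HTSeq-count and DESeq2, whereas the submitters' processing notes, and a software list of the study, name Trimmomatic and HISAT2, on build GRCm38 (mm10). Strand setting and molecular identifiers are not given in the sources used here. A second deposited table holds log2 values, checked to equal log2(count / size factor + 1) within 4.97e-14, and was used for limma only. Symbols came from GENCODE M21 (31011 of 31053 identifiers matched, 42 did not).

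Counts were tested with DESeq2 1.42.0 (Wald test, genotype as the only term, default filters) in R 4.3.3, with Benjamini-Hochberg adjustment over all genes and a threshold of 0.05. The study's methods name DESeq2 but state neither the model nor the filters. Alternatives were edgeR 4.0.16 (quasi-likelihood, TMM, filterByExpr), TMM factors, a filter of 10 counts in 4 libraries, no independent filtering, limma 3.58.1, the replicate block, marker scores as covariates and leaving out each library. Intervals are 1.96 SE on each side. Single genes were also tested by exact permutation over 70 arrangements (SciPy 1.17.1). The code was tested on simulated data.

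The members and lists were chosen with earlier results of these data known. Genes named are the 9 members, Cd36, and, from the pathway list, each called gene and, per role, the 2 with the highest mean and the one with the largest change among those with a mean of at least 50 normalized counts. The 5 genes most like Adrb3 were named by Pearson's r. Dio2, Ppargc1a, Mapk13 and Grk5 were named outside this rule, after their values were seen.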

Additional observations from a re-analysis of the deposited data

Results flagged for a closer look

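Dixon's criterion for a value far from the rest of its group was applied on the log2(normalized count + 1) scale to 20 groups of 4 libraries, of which chance alone would mark about 1, and 2 were marked. Adora2a stood at 13.8 normalized counts in Cd36KO replicate 2, below the other Cd36KO libraries (22.5 to 24.4). Prkar2b stood at 2946 normalized counts in WT replicate 2, below the other WT libraries (3353 to 3369). On the scale of normalized counts, Prkar2b in WT replicate 2 was marked as well, Adora2a was not (gap over range 0.820, just under the critical value), and Adcy3 in WT replicate 1 was (111 normalized counts, 0.858). On neither scale was WT replicate 1 marked for Adrb3, because the other 3 WT libraries are themselves spread from 901 to 1489.7.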

How the results depend on the processing

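Among the 9 members, Adora2a, Adcy3, Prkaca, Prkar2b and Pde3b kept the sign of their log2 fold change in all 17 alternatives (Adcy3 at 0.02 with the white depot covariate), Adrb1, Adrb3 and Gnas in 16 and Creb1 in 13. The white depot covariate, which nearly follows genotype apart from WT replicate 1, reversed Adrb1 to 0.29, Adrb3 to 0.20 and Gnas to -0.24. Creb1 turned to 0.0374 with the muscle covariate, 0.0799 with the replicate block and 0.0827 on the same 6 libraries without the block, and ran from -0.26 to 0.10 when each library was left out. The count of called members was 0 with all libraries, 2 with the replicate block (Adrb3 and Gnas; 1.81% of all genes), 2 on those 6 libraries without it (2.29%, 262 genes, 48 higher and 214 lower), 1 with the muscle covariate (Pde3b; 1.93%) and 0 to 3 when each library was left out. The count of called pathway genes, 7 with all libraries, was 0 with edgeR, 0 with limma, 13 on the 6 numbered libraries without the block, 4 with the muscle covariate and 1 to 15 when each library was left out. Over all genes the 284 calls (137 higher, 147 lower) became 14 with edgeR (4 higher, 10 lower), 171 without independent filtering, 5 with limma, 186 with the muscle covariate (67 higher, 119 lower), 645 with the white depot covariate (508 higher, 137 lower) and 69 to 507 when each library was left out. With the replicate block there were 219 (32 higher, 187 lower). The numbers were not taken to pair the libraries: deviations of same-numbered libraries correlated at -0.13, 0.42 and 0.14, and in 2 of 3 pairs the WT library correlated best with its own number. The block fit uses 6 libraries, since WT replicate 1 and the unnumbered library have no partner. The 6-library fit without the block and the ratios of receptor counts were added after the data had been seen. With 12 to 55 counts per library, Adora2a is the member whose precision depth limits most. The causes of these changes were not tested.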
